A study of Mus musculus with 2 samples.

Results

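The sine oculis homeobox and eyes absent genes studied here were Six2, Six4, Six5, Eya1, Eya2, Eya3 and Eya4, taken by name as the members of these gene families to be described, 7 of the 21951 protein-coding gene records of the GENCODE M21 annotation. Chromatin accessibility was read around them in gastrocnemius, the large calf muscle, of female B6CASTF1/J mice (the F1 hybrid of C57BL/6J and CAST/EiJ) aged 10 days. There was 1 group of 2 DNase-seq libraries, labelled biological replicates 1 and 2, each labelled as tissue of 3 females. Both carry the same donor identifier, there was no treatment, genotype or second age to compare, and so no test between conditions was possible. Whole muscle was used, so each library mixes the nuclei of muscle fibres with those of every other cell in the tissue, and fewer open nuclei cannot be told apart from weaker opening in each nucleus.

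The proteins of Six2, Six4 and Six5 are homeodomain transcription factors related to the sine oculis protein of Drosophila, and proteins of this family bind a DNA element of muscle promoters known as MEF3. Eya proteins, related to Drosophila eyes absent, do not bind DNA by themselves; they join sine oculis homeobox proteins as coactivators and carry a phosphatase domain. Together with Dach and Pax proteins they act in the formation of muscle, kidney, ear and eye, and in muscle they act upstream of the myogenic regulators and of genes of fast fibres.

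DNase I cuts DNA where nucleosomes are displaced, and a peak is a stretch with many cuts. Every peak value below is the authors' own height for that peak, a cut signal normalized to read depth, for which no unit was given. The list with fewer rows held 114758 peaks in replicate 1 and 26804 in replicate 2, with median heights of 1.18 and 1.48. Of these, 16.7% of the peaks of replicate 1 and 70.3% of those of replicate 2 overlapped a peak of the other library by at least 50% of either peak, and such peaks are called shared. Among markers of cell types, a promoter peak was present in 4 of 8 muscle fibre markers in replicate 1 and in 3 of 8 in replicate 2. Des, Tnnt3 and Atp2a1 had one in neither. All 5 neuron markers had one in replicate 1 and 4 in replicate 2, and all 3 fibro-adipogenic and tendon markers had one in both. Endothelial and Schwann cell markers had one in 1 of 3 genes each in either library, and macrophage markers in 0 of 3. Beside these counts, 66.6% of all protein-coding genes had one in replicate 1 and 51.4% in replicate 2. Shared ones differed with CpG density, as given below. The peaks of Ryr1 in replicate 1 and of Rbfox3, Camk2a and Pdgfra in replicate 2 were not at the first start site. The counts therefore do not rank the cell types.

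A promoter peak, with at least 1 base within 1 kb of an annotated transcription start site (TSS) of the gene, was found at 7 of 7 members in replicate 1 and at 6 of 7 in replicate 2, all but Eya2. Over all protein-coding genes the share was 66.6% in replicate 1 and 51.4% in replicate 2. A promoter peak in both libraries was found at 6 of 7 members and at 50.9% of all genes, and a shared one at the same 6 members and at 45.0% of all genes. In the deposited intervals, a base at a false discovery rate (FDR) of at most 0.05 lay in the promoter windows of 7 members in replicate 1 and of 6 in replicate 2, against 71.8% and 60.8% of all genes, and a base at an FDR under 0.001 in those of 7 and 6, against 67.2% and 52.8%. The 45.0% of all genes with a shared one differed with the density of CpG dinucleotides; with all genes cut into 3 classes of equal size by CpG at the first TSS, it was 77.8% in the high class and 48.5% in the middle class. Six2, Six5, Eya1, Eya2 and Eya3 belong to the high class and Six4 and Eya4 to the middle one, and 6 of 7 is to be read against these shares. The shared status rests on the overlap rule: asking for 50% of both peaks left 2 members, Six4 and Eya4, and 26.5% of all genes. When only the 26804 tallest peaks of replicate 1 were kept, those at least 2.71 high, 2 members kept a promoter peak there, Six4 and Eya3, with the Six4 peak at the limit itself, whereas 49.6% of all genes did.

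The promoter peaks of the members were low for their library in most cases. The median over members of the tallest promoter peak was 2.45 in replicate 1 and 1.32 in replicate 2, where the medians over all genes with a promoter peak were 6.30 and 2.03. In replicate 1 the order was Eya3 at 8.41, Six4 at 2.71, Eya1 at 2.53, Eya2 at 2.45, Six5 at 2.32, Eya4 at 0.698 and Six2 at 0.525. In replicate 2 it was Six5 at 2.44, Eya3 at 1.98, Six4 at 1.40, Eya1 at 1.23, Six2 at 1.17 and Eya4 at 1.11, with no peak at Eya2. With 1 value per library the neighbours from Six4 to Six5 there, and from Six4 to Eya4 in replicate 2, cannot be ranked. At Eya3 alone was the tallest peak above the median of all genes in replicate 1, and at Six5 alone in replicate 2. Among genes with a promoter peak in both libraries, replicate 1 had the taller one in 94.5%; of the 6 such members, Eya1, Eya3 and Six4 followed that, and Six2, Six5 and Eya4 were taller in replicate 2.

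**Figure D1:**
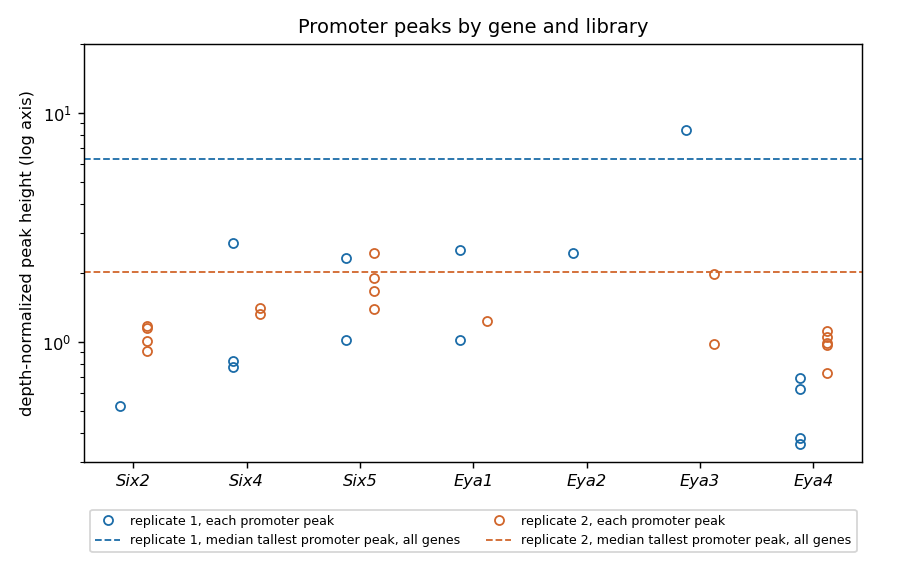
Depth-normalized height (log axis, no unit given) of every promoter peak of the 7 genes in replicate 1 and replicate 2; dashed lines give the median of the tallest promoter peak over all genes with one, 6.30 in replicate 1 and 2.03 in replicate 2. Eya3 at 8.41 is above its line in replicate 1, Six5 at 2.44 above its line in replicate 2, and all other points lie below the line of their own library.

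Counting also the peaks inside the genes and those within 50 kb of their ends, replicate 1 held 14 promoter, 21 gene-body and 52 flank peaks of the members, and replicate 2 held 18, 9 and 33. In each library 22 of these peaks were shared with the other. More gene-body and flank peaks in replicate 1 than in replicate 2 is the rule in these libraries and was seen at 84.4% of all genes; the opposite was seen at 1.62%. Among the members the opposite was seen at Six4 and Six5. A gene-body peak was present at 5 members in replicate 1 and at 3 in replicate 2, where 43.3% and 12.4% of all genes had one, and a flank peak at 7 and 5, where 87.3% and 65.9% had one. A shared gene-body peak was found at 1 member, Eya4 (10.4% of all genes), and a shared flank peak at 5 members, all but Six2 and Eya1 (62.7% of all genes). The median number of gene-body and flank peaks per member was 7 in replicate 1 and 3 in replicate 2, close to the 7 and 2 of all genes.

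**Figure D2:**
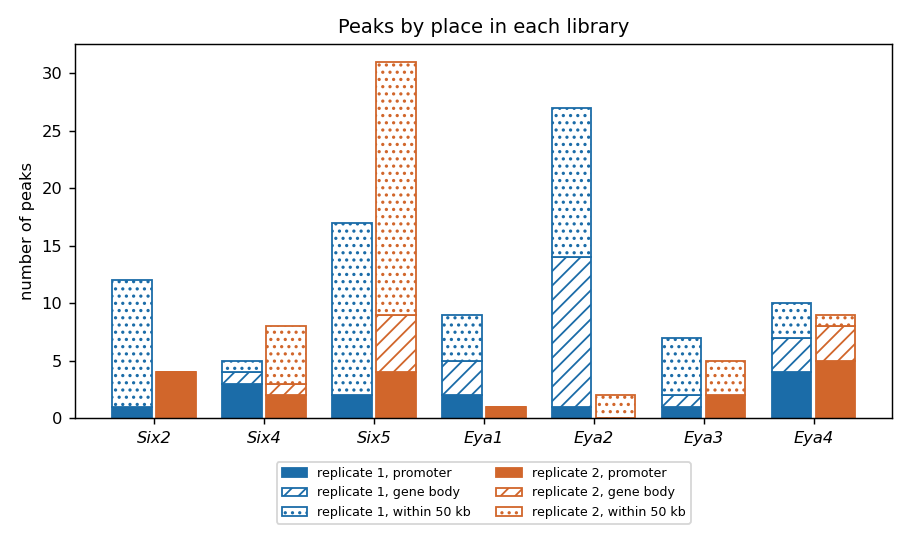
Number of peaks at each gene in the 2 libraries, stacked as promoter (solid), gene body (hatched) and within 50 kb of the gene (dotted). Eya2 had 13 gene-body and 13 flank peaks in replicate 1 and 2 flank peaks in replicate 2, whereas Six5 had 15 flank peaks in replicate 1 and 5 gene-body and 22 flank peaks in replicate 2.

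Six2, a regulator that keeps kidney progenitors undifferentiated and is also expressed in developing tendon and connective tissue, lies on the minus strand at chr17:85684277-85688274 (mm10). Its single promoter peak in replicate 1 was 114 bp wide with a height of 0.525, centred 844 bp upstream of the first TSS, and only 2.56% of the genes with a promoter peak had a lower tallest one. In replicate 2 there were 4 promoter peaks with heights of 1.15, 1.01, 0.911 and 1.17 that covered 672 bp, and the tallest overlapped the peak of replicate 1. Within the promoter window, 48.7% of bases in replicate 1 and 82.0% in replicate 2 lay in deposited intervals at an FDR of at most 0.05. At an FDR under 0.001, 102 bp of the 2021 bp window passed in replicate 1 and 865 bp in replicate 2, so the wide coverage in replicate 1 rests on the looser limit. A window of 500 bp in place of 1 kb left the gene without a promoter peak in replicate 1. The surroundings were the reverse: 11 flank peaks in replicate 1, with heights of 0.304 to 2.61, and 0 in replicate 2. Of all protein-coding genes, 76.9% had fewer flank peaks than Six2 in replicate 1, and 65.9% had at least 1 in replicate 2. None of the 11 flank peaks of Six2 lay within 1 kb of a TSS of any protein-coding gene. The tallest, at chr17:85665061-85665240, was centred 23123 bp downstream of the first TSS of Six2.

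Six4, a homeodomain factor of myogenic precursors, lies on the minus strand at chr12:73099609-73113456. It had 3 promoter peaks in replicate 1, with heights of 2.71, 0.823 and 0.776, and 2 in replicate 2, with heights of 1.40 and 1.33; all 5 were shared. The promoter peaks covered 1040 bp in replicate 1 and 1080 bp in replicate 2, the closest match between libraries of any member. The tallest peak of replicate 1 spanned both annotated start sites, and the part of it upstream of the first TSS is shown here on the plus strand, with the bases of deposited footprints of replicate 1 in capitals; footprints are short stretches inside open chromatin with fewer cuts than their surroundings.
Six4 promoter, chr12:73113457-73113600: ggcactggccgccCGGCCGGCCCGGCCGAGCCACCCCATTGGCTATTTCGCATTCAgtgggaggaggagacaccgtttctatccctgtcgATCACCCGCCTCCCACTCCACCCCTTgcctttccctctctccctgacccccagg
The plus strand carries ATTGG, the CCAAT letters of the minus strand, inside a footprint, and the match touched a footprint, meaning that it lay within 5 bp of one, in both libraries. GC box letters (GGGCGG, searched on both strands) were found here too, at a footprint in replicate 1. In the 200 bp around the centre of the replicate 2 peak, which lies farther into the gene, the 7 letters TCAGGTT of the MEF3 element were found at a footprint; 2.20% of all peaks of that list hold these letters. A gene-body peak was present in each library, at 0.722 and 0.933, in the intron but not overlapping. The flank peak at chr12:73123601-73123800 had the same coordinates in both libraries and heights of 3.60 and 3.63. It lies at the TSS of Mnat1, a subunit of the kinase complex that activates cyclin-dependent kinases. The letters searched for MEF2 (CTA, any 4 bases, TAG) were found there at a footprint in both libraries. They are held by 2.07% and 1.62% of all peaks. With the middle bases left free, the match is not shown to be a MEF2 element. In replicate 2 there were 4 further flank peaks with heights of 1.15 to 1.72, of which 3 lay by a TSS of another gene; replicate 1 had none of them.

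Six5, a homeodomain factor whose gene lies directly downstream of Dmpk, the kinase gene whose repeat expansion causes myotonic dystrophy in humans, is on the plus strand at chr7:19094594-19098549. Its tallest promoter peak was 2.32 in replicate 1 and 2.44 in replicate 2, which stood at percentile 22.6 of all genes with a promoter peak in replicate 1 and at percentile 66.7 in replicate 2, the highest of the members in that library. The narrow peak of replicate 2 lies inside the 480 bp peak of replicate 1, upstream of the TSS and beyond the end of Dmpk, and is shown with the footprint bases of replicate 2 in capitals.
Six5 promoter, chr7:19094161-19094260, plus strand: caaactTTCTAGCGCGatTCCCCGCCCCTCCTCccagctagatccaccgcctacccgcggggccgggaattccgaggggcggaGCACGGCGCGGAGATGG
Both GC boxes in this sequence, ccccgcccc on the plus strand and ggggcgg, touched a footprint of replicate 2. The Six5 promoter held 12 footprints in replicate 1 and 21 in replicate 2, the most of any member in both. Part of the difference between libraries comes from the edge of the window. Of the 21, 7 lay in the peak at chr7:19093181-19093600, by a TSS of Dmpk, which only just reaches the Six5 window. The overlapping peak of replicate 1, with 4 footprints, ended short of the window and was counted as a flank peak.

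At Six5 the signal of replicate 2 was also spread widely. The stretch of unbroken deposited intervals at an FDR of at most 0.05 that holds its TSS ran over 7650 bp in replicate 2, at chr7:19090612-19098261, across the end of Dmpk and nearly all of Six5, and over 1359 bp in replicate 1. In replicate 2 no other of the 101819 such runs on the assembled chromosomes was longer, and their median length was 17 bp; in replicate 1, 3922 of 276214 runs were longer than the one at Six5. Intervals covered 93.3% of the gene in replicate 2 and 20.4% in replicate 1. Inside the gene, replicate 2 had 5 peaks with heights of 0.386 to 0.879 and replicate 1 had 0. Of the 4909 genes of like length (0.5 to 2 times that of Six5), 0.0407% had as many or more in replicate 2. The peaks at chr7:19097081-19097380 and chr7:19097161-19097820 overlap each other, and these counts keep overlapping peaks apart. A further 12 low peaks, 0.193 to 0.375 high, lay within 13 kb downstream of the TSS and past the gene end in replicate 2; each was lower than at least 96.7% of its list. None of these gene-body and downstream peaks was shared. Replicate 1 had taller flank peaks instead, up to 15.2 at the TSS of Dmwd and 13.1 at a TSS of Fbxo46, and 13 of its 15 flank peaks lay within 1 kb of a TSS of another gene (Sympk, Rsph6a, Dmwd, Dmpk, Gm4969 or Fbxo46). In replicate 2, 8 of 22 did.

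**Figure D3:**
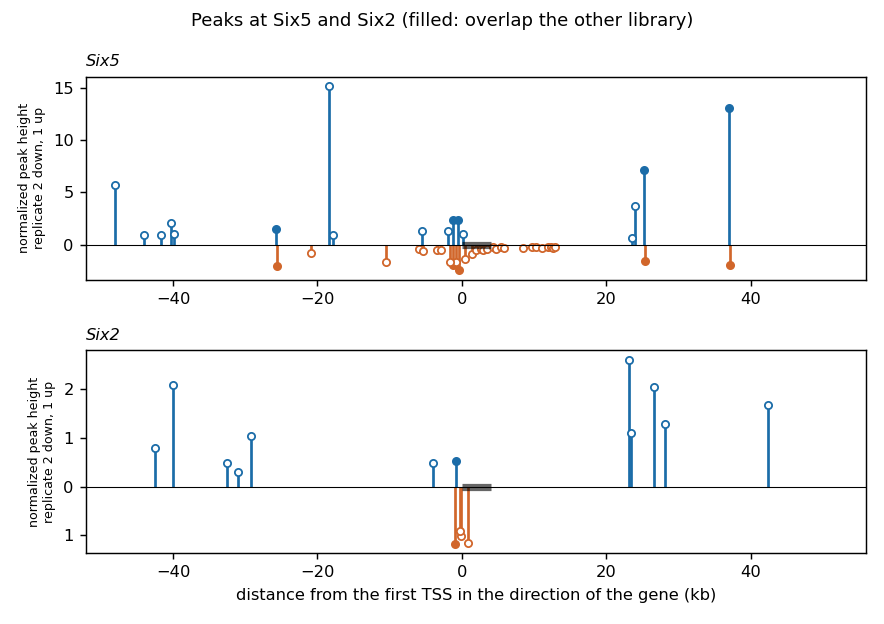
Peak height at Six5 (top) and Six2 (bottom) against the distance in kb from the first TSS in the direction of the gene, with replicate 1 upward and replicate 2 downward, filled points for peaks that overlap the other library and a bar for the gene. At Six5 the replicate 2 peaks form a dense low row through the gene and up to 13 kb downstream, where replicate 1 has 1 promoter peak just past the TSS and no other; at Six2 all 11 flank peaks are from replicate 1.

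Eya1, whose loss causes branchio-oto-renal syndrome in humans, lies on the minus strand at chr1:14168954-14310235. Its shared promoter peak, in an exon, was 2.53 high in replicate 1 (chr1:14309841-14310020) and 1.23 high in replicate 2 (chr1:14309841-14309920). This site was the only peak of the gene and its flanks in replicate 2. Replicate 1 had a second promoter peak of 1.01 by an internal TSS, 3 gene-body peaks of 0.662 to 0.823 and 4 flank peaks of 0.370 to 1.31. Of 2975 genes of like length, 55.6% had more gene-body peaks than Eya1 in replicate 1, and 69.7% had none in replicate 2 either.

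Eya2, described as a coactivator of these homeodomain factors in myogenic cells, lies on the plus strand at chr2:165595032-165771727 and differed from the other members in having no open first TSS. No base within 1 kb of it lay in an interval at an FDR of at most 0.05 in either library, although it falls in the high CpG class with an observed over expected CpG ratio of 0.826. Of the 7326 genes of that class, 2.24% had no peak within 1 kb of the first TSS in either library. The only promoter peak of Eya2, at chr2:165769481-165769660 with a height of 2.45 in replicate 1, lies 385 bp past an internal TSS of a transcript annotated as non-coding, near the end of the gene; with TSSs of protein-coding transcripts alone the gene had none.

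The introns and flanks of Eya2 were open in replicate 1. It had 13 gene-body peaks, all in introns, with heights of 0.650 to 5.74, and 83.9% of 2420 genes of like length had fewer. A further 13 flank peaks had heights of 0.871 to 9.78, the tallest at chr2:165788021-165788200. None of the 13 lay by a TSS of any protein-coding gene. In replicate 2 there was no gene-body peak and there were 2 flank peaks, both shared. At least 26 gene-body and flank peaks in replicate 1 beside at most 2 in replicate 2 was seen at 0.925% of all genes and at 2.77% of the genes of like length; these limits are the counts of Eya2 itself. Of the genes of like length, 66.5% had no gene-body peak in replicate 2 either. Beside this, the 5 neuron markers held 84 gene-body and 66 flank peaks in replicate 1 and 5 and 17 in replicate 2, where Rbfox3 alone gave 72 of the 84. Without it, a gene set aside after its values were seen, the other 4 held 12 and 47 in replicate 1 and 1 and 15 in replicate 2. The 8 muscle fibre markers held 14 gene-body and 101 flank peaks in replicate 1 and 3 and 60 in replicate 2. In the same order, the 3 Schwann cell markers held 1 and 27, then 0 and 11, the 3 endothelial markers 11 and 22, then 6 and 8, the 3 macrophage markers 3 and 13, then 0 and 4, and the 3 fibro-adipogenic and tendon markers 8 and 29, then 3 and 24. Every one of these lists held fewer gene-body and flank peaks in replicate 2, as 84.4% of all genes did; whether other cells in the sample have a part in the Eya2 peaks was not tested.

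The tallest, the second tallest and the fourth tallest gene-body peaks of Eya2 show the letters these peaks share, and are given on the plus strand with the footprint bases of replicate 1 in capitals.
Eya2 intron, chr2:165634561-165634740, height 5.74: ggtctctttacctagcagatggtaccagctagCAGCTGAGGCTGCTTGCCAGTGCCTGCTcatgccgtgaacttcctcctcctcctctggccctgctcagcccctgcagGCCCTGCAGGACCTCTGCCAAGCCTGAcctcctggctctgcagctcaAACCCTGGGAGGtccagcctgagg
Eya2 intron, chr2:165693341-165693540, height 4.79: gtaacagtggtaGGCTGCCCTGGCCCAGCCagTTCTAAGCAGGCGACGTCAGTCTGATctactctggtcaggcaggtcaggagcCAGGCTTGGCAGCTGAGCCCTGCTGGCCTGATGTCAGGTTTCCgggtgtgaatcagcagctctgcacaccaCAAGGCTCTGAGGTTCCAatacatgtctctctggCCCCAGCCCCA
Eya2 intron, chr2:165629941-165630140, height 2.80: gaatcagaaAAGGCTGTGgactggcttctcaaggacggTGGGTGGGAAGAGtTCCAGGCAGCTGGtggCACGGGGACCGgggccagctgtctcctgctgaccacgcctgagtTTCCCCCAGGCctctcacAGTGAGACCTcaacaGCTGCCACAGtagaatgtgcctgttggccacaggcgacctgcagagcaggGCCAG
CAGCTG, the E-box letters bound by MyoD-type and other basic helix-loop-helix factors, stands in all of these, with 3 matches in the last. Within the 200 bp around the peak centre it was found in 8 of the 13 gene-body peaks (61.5%), 5 of them with a match at a footprint. The share was 21.5% of the 78127 peaks of replicate 1 that lie away from every TSS and were not shared, and 2 of 13 in the flank peaks of Eya2. The second of the sequences also holds TCAGGTTTC, the MEF3 element with 9 letters, inside a footprint; 0.238% of all peaks of replicate 1 hold these 9 letters. This split of motif counts by place and the 9-letter form were looked at after the values were seen.

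**Figure D4:**
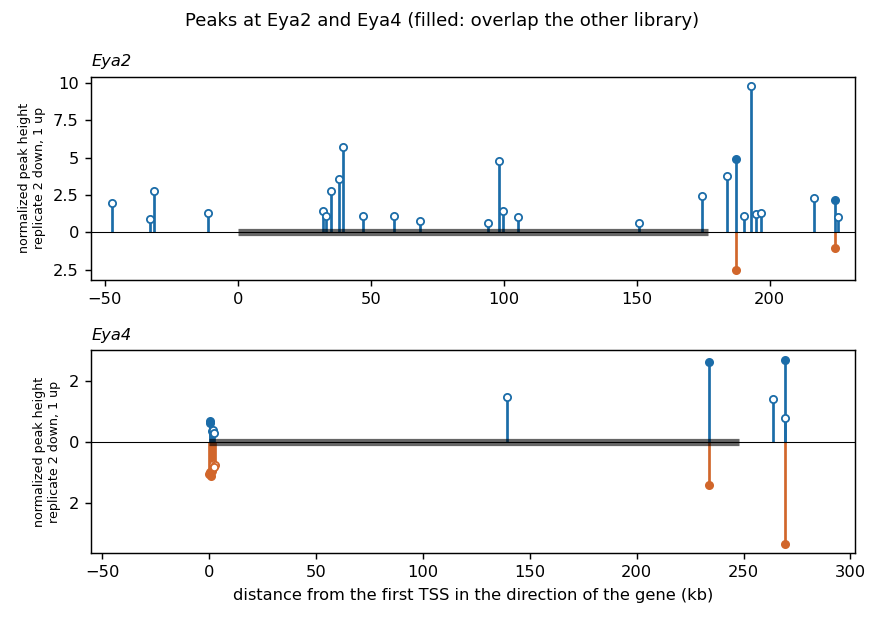
Peak height at Eya2 (top) and Eya4 (bottom) against the distance in kb from the first TSS in the direction of the gene, with replicate 1 upward and replicate 2 downward, filled points for peaks that overlap the other library and a bar for the gene. Eya2 has no peak at its first TSS, 13 gene-body peaks of replicate 1 alone and 2 shared flank peaks; Eya4 has its promoter group, 1 shared peak in the gene and 1 shared peak past its end.

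Eya3, a coactivator that also acts as a tyrosine phosphatase on histone H2AX, lies on the plus strand at chr4:132638987-132724765 and had the tallest promoter peak of the members in replicate 1. That peak, at chr4:132638881-132639100, was 8.41 high, at percentile 61.2 of all genes with a promoter peak, and the overlapping peak of replicate 2 was 1.98 high, at percentile 47.9. The ratio of 4.24 between the libraries was the largest among the members. The part upstream of the first TSS is shown on the plus strand with the footprint bases of replicate 1 in capitals.
Eya3 promoter, chr4:132638881-132638986: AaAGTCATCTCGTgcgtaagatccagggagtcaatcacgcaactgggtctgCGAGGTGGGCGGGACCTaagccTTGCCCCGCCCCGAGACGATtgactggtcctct
It holds GC box letters on each strand, both at a footprint of replicate 1. Farther in, past the first TSS, ETS letters (CCGGAAGT) were found on the minus strand and touched a footprint in both libraries. They are held by 1.12% of all peaks of replicate 1 and 2.45% of those of replicate 2. Among the peaks at a TSS, as this one is, the shares were 3.51% and 3.48%. Replicate 2 had a second promoter peak of 0.976 in the first intron. The gene body held 1 low peak of 0.537 in replicate 1 and 0 in replicate 2, and 61.4% of 4524 genes of like length had more in replicate 1. All 3 shared flank peaks lay at TSSs of neighbours: Rpa2, a subunit of replication protein A, with heights of 12.8 and 3.72 in replicates 1 and 2, Xkr8, a phospholipid scramblase, with 4.44 and 1.22, and Smpdl3b, a sphingomyelinase-like enzyme, with 1.72 and 1.05. Around Eya3, then, sharing was found at TSSs only.

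Eya4, whose variants cause hearing loss in humans, lies on the minus strand at chr10:23102963-23350786. Its promoter was broad and low: 4 peaks of 0.358 to 0.698 in replicate 1 that covered 858 bp, and 5 peaks of 0.729 to 1.11 in replicate 2 that covered 1603 bp. Of these, 3 in replicate 1 and 4 in replicate 2 were shared. Some peaks of replicate 2 overlap each other in the deposited list, and the longest is 1080 bp wide. The tallest stood at percentile 4.88 of all genes with a promoter peak in replicate 1 and at percentile 10.1 in replicate 2. The gene-body peaks were 3 in each library. For this length, 77.6% of 1656 genes had more in replicate 1 and 3.20% had more in replicate 2. Of these peaks 1 was shared, with heights of 2.64 and 1.40, 1775 bp upstream of an internal TSS of a retained-intron transcript, so a promoter window of 2 kb counted it as a promoter peak and made it the tallest in both libraries. The flank peak at chr10:23081381-23081560, past the end of the gene, was 2.70 high in replicate 1 and 3.34 in replicate 2. It was the tallest peak of Eya4 in both libraries, in replicate 1 only just above the shared gene-body peak.

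Over all members, 5 shared sites lay more than 1 kb from every TSS of every protein-coding gene, and they are the distal sites that both libraries show. They are given on the plus strand as the peak of replicate 1, with its footprint bases in capitals.
Six5 upstream, chr7:19068850-19068982: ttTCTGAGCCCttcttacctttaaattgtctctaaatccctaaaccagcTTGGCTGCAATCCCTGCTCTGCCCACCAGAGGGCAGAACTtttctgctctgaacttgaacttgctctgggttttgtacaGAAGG
Eya2 downstream, chr2:165782421-165782620: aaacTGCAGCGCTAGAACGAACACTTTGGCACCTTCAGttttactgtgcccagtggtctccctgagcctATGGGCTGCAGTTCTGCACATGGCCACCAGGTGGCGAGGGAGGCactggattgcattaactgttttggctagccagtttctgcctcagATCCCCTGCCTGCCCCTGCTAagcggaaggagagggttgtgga
Eya2 downstream, chr2:165819581-165819780: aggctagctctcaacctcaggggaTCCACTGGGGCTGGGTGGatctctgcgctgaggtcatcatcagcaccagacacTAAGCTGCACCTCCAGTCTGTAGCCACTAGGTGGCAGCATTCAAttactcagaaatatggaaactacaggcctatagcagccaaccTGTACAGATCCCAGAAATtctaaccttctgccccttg
Eya4 intron, chr10:23116881-23117060: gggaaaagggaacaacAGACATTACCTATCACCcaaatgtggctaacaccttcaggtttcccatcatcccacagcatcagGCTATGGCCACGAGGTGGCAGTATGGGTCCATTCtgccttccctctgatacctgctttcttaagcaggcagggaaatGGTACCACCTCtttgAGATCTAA
Eya4 downstream, chr10:23081381-23081560: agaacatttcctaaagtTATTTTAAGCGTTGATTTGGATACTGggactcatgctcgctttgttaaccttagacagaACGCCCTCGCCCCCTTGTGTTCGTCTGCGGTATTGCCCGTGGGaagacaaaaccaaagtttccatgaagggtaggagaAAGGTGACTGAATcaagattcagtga
Their heights in replicates 1 and 2 were 1.49 and 2.00 for the site upstream of Six5, 4.90 and 2.54 for the first and 2.17 and 1.04 for the second downstream of Eya2, and the values given above for Eya4. The letters of CTCF, the zinc finger protein of chromatin loop anchors (CCA, any 2 bases, AG, any 2 bases, GGC), were found in 4 of these 5 sites, all but the last. They were found in 30.2% of the shared peaks of replicate 1 that lie away from every TSS and in 29.2% of those of replicate 2, and in 8.83% and 9.36% of all peaks. The match touched a footprint at each of the 4 sites in replicate 1 and at 3 of them in replicate 2, all but the second downstream of Eya2. The Eya4 intron site also holds the 9 MEF3 letters TCAGGTTTC, starting at chr10:23116932, which touched a footprint in replicate 2 but not in replicate 1; 0.238% of all peaks of replicate 1 and 0.183% of those of replicate 2 hold them. The site past the end of Eya4 has no exact match to the CTCF letters. Within a footprint of replicate 1, however, its minus strand carries these letters at every fixed base but the first. Because the search took exact matches only, the site is not shown to lack a CTCF element. It holds the letters searched for AP-1 (TGANTCA, with N any base) at a footprint in both libraries. These letters are held by 5.15% and 3.37% of all peaks. The middle base of the match is A. With that base left free in the search, the match is not shown to be an AP-1 element. A match of letters is not a bound site.

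Taking all peaks of the members as 1 set, the share with each motif was set beside that of the whole list. In replicate 1, 3 of 87 member peaks (3.45%) held the 7 MEF3 letters and 20 (23.0%) the E-box, against 2.46% and 19.5% of all peaks; in replicate 2, 2 of 60 (3.33%) and 4 (6.67%) did, against 2.20% and 14.0%. Of the 20 E-box peaks of replicate 1, Eya2 gave 8 in its gene body and 2 in its flanks. GC box letters were in 24.1% of member peaks in replicate 1 and 26.7% in replicate 2, against 18.4% and 36.3% of all peaks. These shares depend on how many peaks lie at a TSS. Among peaks within 1 kb of a TSS of any protein-coding gene, 15 of 31 member peaks held GC box letters in replicate 1 and 15 of 33 in replicate 2. The shares of all such peaks were near these, at 47.1% and 48.3%. The promoter peaks of the members held 42 distinct footprints in replicate 1 and 62 in replicate 2.

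Of 23 partners, upstream factors and muscle genes of the pathway, 22 could be placed, since Aldoa names 2 gene records. A promoter peak was present at 16 of the 22 (72.7%) in replicate 1, at 9 (40.9%) in replicate 2 and as a shared one at 8 (36.4%), beside the 66.6%, 51.4% and 45.0% of all genes. By CpG class, a shared one was present at 2 of 8 in the low class (8.57% of all genes there), 3 of 10 in the middle (48.5%) and 3 of 4 in the high class (77.8%). The partners Dach1, a nuclear cofactor of the Dach family, and Sobp, the sine oculis binding protein, had shared promoter peaks, with tallest heights in replicates 1 and 2 of 1.87 and 0.686 at Dach1 and of 5.85 and 1.72 at Sobp. The corepressor Tle3 had a shared one as well (20.2 and 1.94), and Dach2 had a promoter peak in replicate 1 alone (2.51). Of the upstream factors and myogenic regulators, Mef2c, a MADS-box factor of muscle genes, had a shared one (3.37 and 1.06). No Mef2c peak lay within 1 kb of its first TSS in either library, so its promoter peaks are at other TSSs. Myf6 had a shared one as well (0.406 and 0.879). Pax3 (2.41) and Myod1 (1.59) had one in replicate 1 alone, and Myog and Myf5 had none in either library. Pax7, the marker of satellite cells, had a promoter peak in replicate 2 alone (1.19), with 6 gene-body and 5 flank peaks in replicate 1 and 5 and 1 in replicate 2.

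Of the muscle fibre genes of the list, Ckm, the muscle creatine kinase, had a shared promoter peak (2.63 and 3.46 in replicates 1 and 2), as did Actn3, the alpha-actinin of fast fibres (14.7 and 5.02). The parvalbumin gene Pvalb (3.38), Mylk2, a myosin light chain kinase (2.47), and Tnni2, the fast troponin I (0.650), had one in replicate 1 alone. Tnnt3, the fast troponin T, Atp2a1, the calcium pump of fast fibres, and Myh4, a fast myosin heavy chain, had none in either library. Of the other genes described as targets, Slc8a3, a sodium-calcium exchanger, had shared promoter peaks (2.67 and 0.879), and the kidney genes Gdnf (0.525) and Sall1 (0.973) had promoter peaks in replicate 1 alone.

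By tallest promoter height, set to 0 where a library had no promoter peak, and number of gene-body and flank peaks in both libraries, the 2 pathway genes nearest to each member, with no threshold on likeness, were Myh4 and Sall1 for Six2, Mylk2 and Pvalb for Six4, Ckm and Tnni2 for Six5, Slc8a3 and Dach2 for Eya1, Myod1 and Dach1 for Eya2, Actn3 and Mef2c for Eya3, and Pax7 and Mylk2 for Eya4. The distance, Euclidean over 4 log2 values, was smallest for Eya1 and Slc8a3 at 1.13, with Eya2 and Myod1 also at 1.13, and largest among first neighbours for Six4 and Mylk2 at 2.26. Of the genes named here, Myh4 had no promoter peak in either library and Sall1, Mylk2, Pvalb, Tnni2, Dach2, Myod1 and Pax7 lacked one in 1 library, as Eya2 did, so for these the zeros enter the distance.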

How the data were processed

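DNase-seq was deposited for 2 libraries of 1 group. Per the labels, each library's files were made on mm10 from its own filtered alignments, with no pooling. Aligner and callers, with their versions, were not given in the sources used here. Deposited peak heights are a signal normalized to read depth by the authors. Total reads are not in the files, so depth is unknown, and the number of peaks does not give it. Deposited intervals carry an FDR, the authors' corrected p-value, which reaches 0.05 at most. The deposited footprint score was 0.01 for every footprint, so footprints were counted, not ranked. The members and lists were chosen with earlier results of these data known.

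The shorter peak list of each library was used. Any base within 1 kb of a TSS made a promoter peak, then any base in the gene a gene-body peak, then any within 50 kb of its ends a flank peak; each peak has 1 class per gene. Genes are protein-coding GENCODE M21 records. Peaks were placed by or away from a TSS with the TSSs of these genes alone, so starts of non-coding genes were not looked at. Genes of like length are those 0.5 to 2 times as long as a member. CpG ratios were taken over 1 kb around the first TSS. Letters of 10 motifs were searched on both strands in 200 bp around peak centres, with the GRCm38 sequence from NCBI; a match was at a footprint if it lay within 5 bp of one. Motifs such as the E-box and MEF3 were scored apart, and their matches may overlap. All 7 members and the pathway list are named whatever their values, with Aldoa left out as ambiguous; the tallest and shared peaks are named, and other genes only as neighbours. No test was run, since there is 1 group. Python 3.11.15, numpy 2.4.6, pandas 2.3.3 and matplotlib 3.10.9 were used. Overlap and class code was tested on simulated data against bedtools and a direct count, with 0 differences.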

Additional observations from a re-analysis of the deposited data

How the results depend on the processing

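In all, 97 values were recomputed under 13 settings. The number of members with a promoter peak stayed within 6 to 7 in replicate 1 and at 6 in replicate 2 under the other window widths, TSS choices and peak list, and changed with one setting. With equal numbers of the tallest peaks it was 2 in replicate 1, with 4 gene-body and 12 flank peaks there, and 13 and 45 over both libraries, because that setting drops the lower peaks of replicate 1. An overlap of 50% of both peaks gave 2 members with a shared promoter peak. The list with more rows gave 48 gene-body peaks in replicate 1, 14 in replicate 2 and 62 in both. Windows of 20 kb gave 22, 21 and 43 flank peaks and windows of 100 kb gave 99, 64 and 163, by construction. Leaving out each library gave 9 to 21 gene-body peaks, 33 to 52 flank peaks and 6 to 7 members with a promoter peak. With a 2 kb promoter window the tallest promoter peak of Eya4 in replicate 1 was 2.64. No paired analysis was possible because there is 1 group.

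With 2 libraries of unequal peak number, the lack of a peak in replicate 2 does not show closed chromatin; this holds for the peaks of Eya2 and Six2 seen in replicate 1 alone. Heights are on each library's own scale, and the read number behind them is unknown, so no interval was given. Motif matches are letters only.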
